A study of Homo sapiens with 9 samples.

Results

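Lineage markers of ovarian cancer were followed in 9 RNA-seq libraries of ES-2, a human ovarian cancer cell line: SPP1, ARID1A, PAX8, WT1, MSLN, MUC16 and FOLR1. Members were taken by name from the deposited table of 32997 genes. 5 of the 7 had a row, and 3 of these (SPP1, ARID1A and WT1) reached 0.5 RPKM in at least 3 libraries and were tested. RPKM is the number of reads per kilobase of gene length and per 1000000 reads in genes. The groups were ES-2 cells with OTUB2 overexpression, ES-2 cells with SNX29P2 overexpression and ES-2 cells with an empty vector, 3 libraries each. OTUB2 encodes a deubiquitinase, and SNX29P2 is a pseudogene of the sorting nexin SNX29. All cells grew in RPMI-1640 with serum. No source used here states the promoter of the constructs or whether a group came from 1 clone or from separate cultures. The p-values therefore reflect the spread among the libraries sequenced, which may be technical. The title of the series concerns OTUB2 in ovarian cancer, and the question asked here was which lineage markers these cells carry and how they compare between the overexpression groups and the vector.

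Pathologists tell the main types of ovarian carcinoma apart by such markers. High-grade serous carcinoma typically expresses PAX8, a transcription factor of the Mullerian epithelium, and WT1, a zinc finger transcription factor, and often carries the surface proteins MSLN (mesothelin), MUC16 (the mucin that bears the CA125 antigen and binds mesothelin) and FOLR1 (folate receptor alpha). Clear cell carcinoma is usually WT1-negative, often expresses the protease NAPSA, and frequently has lost ARID1A, a subunit of the SWI/SNF chromatin remodelling complex. SPP1 encodes osteopontin, a secreted glycoprotein that binds integrins and CD44 and that macrophages also make. Only RNA levels were used here, so neither the proteins nor mutations of these genes were tested.

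Libraries held between 38504854 and 48551215 reads in genes. OTUB2 was at 37.6 to 42.6 RPKM in its own libraries and 1.04 to 1.58 RPKM in the other groups, and SNX29P2 was at 41.0 to 55.1 RPKM in its own libraries and at most 0.0665 RPKM elsewhere. OTUB2 replicate 1 stood apart from the other libraries. It had the most genes with a read, 25778 against 24263 to 25380 elsewhere. Of 10 markers of macrophages and other leukocytes, all 10 had reads in that library, against 4 to 6 in each of the other 8 libraries. With CD68 left out, because ES-2 cells had 28.6 to 35.3 RPKM of it in all libraries, the other 9 summed to 6.80 RPKM in OTUB2 replicate 1, and to 0.333 and 0.208 RPKM in OTUB2 replicates 2 and 3, 0.232 to 0.268 RPKM with SNX29P2 and 0.233 to 0.317 RPKM with the vector. LYZ (lysozyme) alone had 316 reads and 4.22 RPKM there. TYROBP, AIF1, CD3E and MS4A1 had 37, 16, 34 and 18 reads there and 0 in every other library. CSF1R and CD163, macrophage genes of the same list, were not raised there. They were at 0.119 and 0.0243 RPKM, against up to 0.146 and 0.0625 RPKM in other libraries. Log2 fold changes of the tested members and medians of the main gene lists in the OTUB2 comparisons are given with and without this library. No listed gene was called by limma in the OTUB2 comparisons without it.

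SPP1 and ARID1A averaged almost the same level over the 9 libraries (6.86 and 6.95 RPKM) but start in very different sequence. The 300 bases around the transcription start (250 before and 50 after it) of SPP1, ARID1A and WT1 are shown with each CpG in capitals, because these 3 members were tested and their start regions differ in CpG density. They are from RefSeq, build GRCh38.p14, 5′ to 3′ on the strand of the gene. The first is chr4:87975464-87975763 (plus strand), the second chr1:26695765-26696064 (plus strand), and the last chr11:32435490-32435789 (minus strand), the farthest upstream of 4 WT1 starts in the table.
SPP1: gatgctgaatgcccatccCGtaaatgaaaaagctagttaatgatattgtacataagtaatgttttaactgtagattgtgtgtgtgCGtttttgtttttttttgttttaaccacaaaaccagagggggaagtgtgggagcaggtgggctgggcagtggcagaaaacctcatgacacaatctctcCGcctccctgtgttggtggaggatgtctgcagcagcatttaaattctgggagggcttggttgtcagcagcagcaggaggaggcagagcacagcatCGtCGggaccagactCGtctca
ARID1A: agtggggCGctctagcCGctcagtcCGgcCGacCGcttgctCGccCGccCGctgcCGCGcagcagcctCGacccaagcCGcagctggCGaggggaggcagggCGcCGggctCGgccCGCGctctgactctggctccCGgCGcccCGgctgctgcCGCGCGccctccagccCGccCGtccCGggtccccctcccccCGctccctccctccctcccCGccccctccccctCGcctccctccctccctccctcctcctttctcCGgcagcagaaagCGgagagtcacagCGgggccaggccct
WT1: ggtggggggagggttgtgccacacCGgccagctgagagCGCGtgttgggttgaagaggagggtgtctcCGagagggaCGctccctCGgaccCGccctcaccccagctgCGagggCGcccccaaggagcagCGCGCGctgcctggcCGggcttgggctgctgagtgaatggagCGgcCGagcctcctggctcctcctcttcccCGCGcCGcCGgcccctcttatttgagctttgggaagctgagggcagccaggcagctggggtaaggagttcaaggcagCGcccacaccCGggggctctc
SPP1 has 6 CpG in this window, fewer than the median of 14 over 35116 promoters, and 47.7% G and C. ARID1A has 33 CpG and 78.0% G and C, and 82.8% of promoters have fewer CpG. WT1 has 21 CpG, PAX8 13, and the 2 MUC16 starts have 8 and 7. MSLN and FOLR1 were not matched in that table. Across the deposited table, genes with at most 11 CpG at their first listed start had a median of 0.0894 RPKM (3370 genes), and genes with at least 33 CpG a median of 5.30 RPKM (3380 genes), so SPP1 lay above the median of genes with few CpG. The motif TATAAA, present on either strand in 11.5% of all promoters, was in none of the 3 windows. Only this exact sequence was searched, and variants such as the TTTAAA in the SPP1 window were not counted. GGGCGG, a GC box present in 45.0% of promoters on either strand, was in the windows of ARID1A and WT1 and not in that of SPP1. GCGTGGGCG and GCGGGGGCG, sites bound by EGR1 and WT1 and present in 0.795% and 5.07% of promoters, were in none of the 3, and neither was TGANTCA, the AP-1 site, present in 7.71% of promoters. Both strands were searched for every motif.

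SPP1 was higher in every overexpression library than in every vector library, by a factor of 1.72 with OTUB2 and 1.53 with SNX29P2, but neither difference passed the test over all genes. It lies on chromosome 4 at 87975650 to 87983426 (GRCh38, plus strand), and no other row had an exon within it. Its level was 10.4, 7.02 and 7.57 RPKM with OTUB2. With SNX29P2 it was at 10.2, 6.39 and 5.94 RPKM, and with the vector at 5.51, 4.30 and 4.44 RPKM. The lowest overexpression library was above the highest vector library, and the OTUB2 and SNX29P2 libraries overlapped. Of all 16533 genes tested, 5.9% were likewise higher without overlap with OTUB2 and 6.13% with SNX29P2. Reads behind these values numbered 702 to 1020 with OTUB2, 592 to 1085 with SNX29P2 and 384 to 546 with the vector. Group means were 8.32 ± 1.79 RPKM with OTUB2, 7.51 ± 2.34 RPKM with SNX29P2 and 4.75 ± 0.664 RPKM with the vector (SD, n = 3 each). The order was thus OTUB2, SNX29P2, vector, and the OTUB2 and SNX29P2 groups did not separate beyond their spread, with libraries taken as unpaired. Each OTUB2 library was above the SNX29P2 library of the same number, the first of them narrowly.

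**Figure D1:**
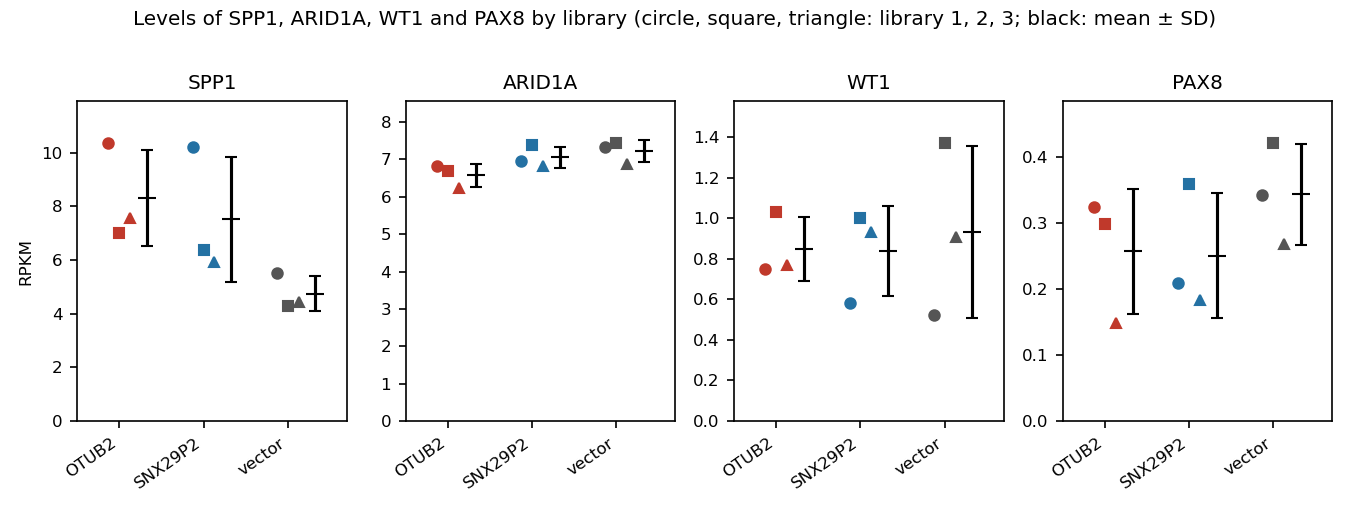
Level (RPKM, linear axes from 0) of SPP1, ARID1A, WT1 and PAX8 in each library of the OTUB2, SNX29P2 and vector groups, with the group mean and SD in black. SPP1 is at 5.94 RPKM or more in the 6 overexpression libraries and at 5.51 RPKM or less in the 3 vector libraries, while ARID1A stays between 6.22 and 7.44 RPKM and WT1 and PAX8 overlap between groups.

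Against the vector the log2 fold change of SPP1 was 0.78 with OTUB2 (SE 0.213, a factor of 1.72 with a 95% interval of 1.24 to 2.40; limma, unadjusted p = 0.00465, Benjamini-Hochberg adjusted p = 0.586). With SNX29P2 it was 0.62 (SE 0.213, a factor of 1.53 with a 95% interval of 1.10 to 2.14; limma, unadjusted p = 0.0169, Benjamini-Hochberg adjusted p = 0.543). OTUB2 against SNX29P2 gave 0.17 (95% interval of the factor 0.806 to 1.56; limma, adjusted p = 1.000). These fold changes are on the log2(RPKM + 0.1) scale, and both comparisons with the vector use the same 3 vector libraries. Without OTUB2 replicate 1 the OTUB2 value was 0.62 (limma, adjusted p = 0.962). Without SNX29P2 replicate 1 the SNX29P2 value was 0.38 (limma, adjusted p = 0.524). OTUB2 against SNX29P2 was 0.00018 without OTUB2 replicate 1 and 0.41 without SNX29P2 replicate 1.

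Leukocyte transcripts and SPP1 were both highest in OTUB2 replicate 1. SNX29P2 replicate 1 had 10.2 RPKM of SPP1, close to the 10.4 RPKM of that library, with 0.232 RPKM of the 9 leukocyte markers and 0 reads of PTPRC, TYROBP and AIF1. The OTUB2 libraries 2 and 3, in which those 3 genes were also at 0, had 7.02 and 7.57 RPKM of SPP1, above all vector libraries. The part of leukocyte RNA in the level of SPP1 in OTUB2 replicate 1 was not tested.

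**Figure D2:**
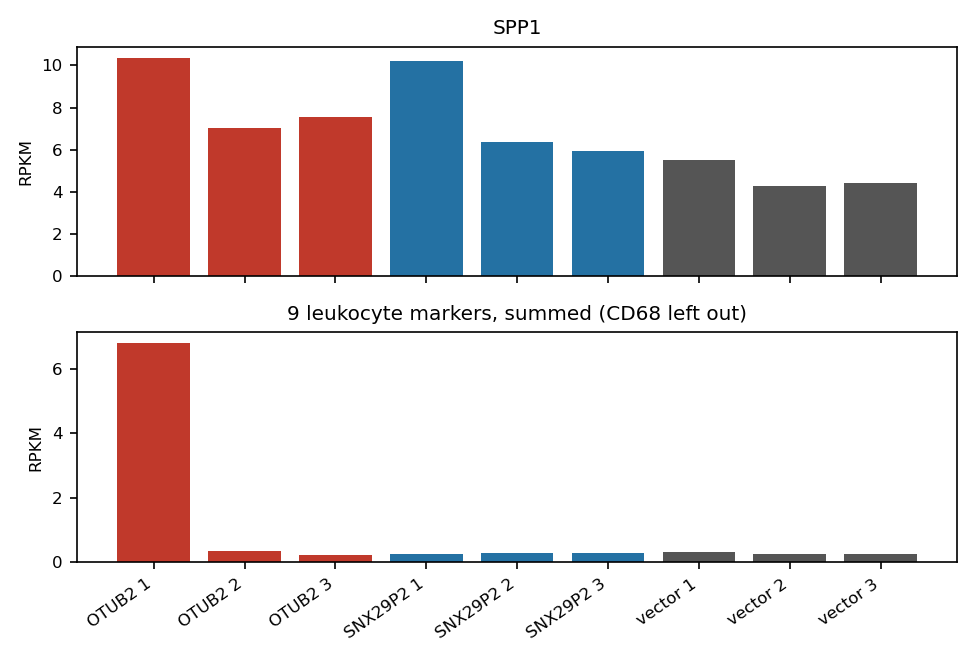
SPP1 (top, RPKM) and the summed level of 9 leukocyte markers without CD68 (bottom, RPKM) in each of the 9 libraries, 1 bar a library. The leukocyte sum is 6.80 RPKM in OTUB2 replicate 1 and at most 0.333 RPKM in the others, whereas SPP1 is about as high in SNX29P2 replicate 1 as in OTUB2 replicate 1.

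Osteopontin receptors ranged from abundant to barely detected, and none showed a called difference. Of 10 listed receptor genes 9 had a row and 7 were tested, led by ITGB1 (integrin beta 1, 137 ± 8.89 RPKM), CD44 (70.4 ± 2.90 RPKM) and ITGA5 (22.2 ± 2.29 RPKM; SD over all 9 libraries). The lowest tested one was ITGA4, at 4.18 RPKM, while ITGB6 and ITGA9 were at 0.0536 and 0.0564 RPKM and ITGA8 had no row. None of the 7 was called in any comparison, and their median log2 fold change was -0.04 with OTUB2 and -0.03 with SNX29P2, beside 0.01 and 0.01 over all genes tested. Without OTUB2 replicate 1 the OTUB2 median was 0.01. The smallest unadjusted p was that of ITGB5 (integrin beta 5) with SNX29P2, at a log2 fold change of -0.32 (limma, adjusted p = 0.534). Of the 5 genes of the SIBLING family of secreted phosphoproteins, to which SPP1 belongs, IBSP (bone sialoprotein) had 1 read in all libraries together, and DMP1, DSPP and MEPE had no row.

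ARID1A was expressed in all libraries and differed little between groups. It lies on chromosome 1 at 26693236 to 26782104 (plus strand), and the RefSeq window shown above, from 26695765, lies within this span. The level of ARID1A was 6.82, 6.69 and 6.22 RPKM with OTUB2. It was 6.95, 7.38 and 6.83 RPKM with SNX29P2, and 7.33, 7.44 and 6.88 RPKM with the vector. The OTUB2 libraries were the 3 lowest, by a narrow margin below SNX29P2 replicate 3, while SNX29P2 and vector libraries overlapped. Of all genes tested, 4.91% were lower without overlap with OTUB2 than with the vector, and 4.05% lower than with SNX29P2. Between 3958 and 5168 reads stood behind each value. Such RNA levels do not show whether ARID1A protein was kept. Means were 6.58 ± 0.311 RPKM with OTUB2, 7.05 ± 0.285 RPKM with SNX29P2 and 7.22 ± 0.296 RPKM with the vector (SD, n = 3 each).

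On the log2 scale ARID1A was -0.13 with OTUB2 against the vector (SE 0.0727, a factor of 0.912 with a 95% interval of 0.815 to 1.02; limma, adjusted p = 0.790). It was -0.03 with SNX29P2 against the vector (95% interval of the factor 0.873 to 1.09; limma, adjusted p = 0.941) and -0.10 with OTUB2 against SNX29P2 (0.833 to 1.04; limma, adjusted p = 1.000). Without OTUB2 replicate 1 ARID1A was -0.16 with OTUB2 against the vector (limma, adjusted p = 0.962) and -0.13 against SNX29P2 (limma, adjusted p = 1.000). The row RP5-968P14.2, which lies on the opposite strand and shares 382 exon bases with ARID1A, had 368 reads in all 9 libraries against 42703 for ARID1A, and whether the counting used strand is not given in the sources used here.

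The other subunits of SWI/SNF were present with it. Of 28 listed subunits, 26 had a row and 25 were tested. All 25 averaged at least 1 RPKM over the 9 libraries, and ACTL6B, a subunit known from neurons, had 2 reads in all. The most abundant were SMARCB1 (36.1 ± 1.87 RPKM), SMARCD2 (35.2 ± 1.71 RPKM) and ACTL6A (31.5 ± 2.46 RPKM; SD over 9 libraries). SMARCA4, the main catalytic subunit in most cells, was at 22.3 ± 1.33 RPKM, and ARID1B, the paralogue that can take the place of ARID1A, at 1.56 ± 0.111 RPKM. Per kilobase ARID1A was therefore above ARID1B in these cells, by the lengths in the table, 15922 bases for ARID1A and 44058 for ARID1B. In reads the gap was smaller, 42703 for ARID1A and 26518 for ARID1B over the 9 libraries, so its size depends on these lengths.

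None of the 25 was called in any of the 3 comparisons. With OTUB2, 13 were higher and 12 lower than with the vector (median log2 fold change 0.01, and 0.01 over all genes tested). Without OTUB2 replicate 1, 14 were higher and 11 lower, with a median of 0.02. With SNX29P2, 16 were higher and 9 lower (median 0.04, and 0.01 over all genes). DPF1 had the highest value with OTUB2, at a log2 fold change of 0.35 (limma, adjusted p = 0.750). ARID1B was at -0.14 with OTUB2 and -0.10 with SNX29P2.

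**Figure D3:**
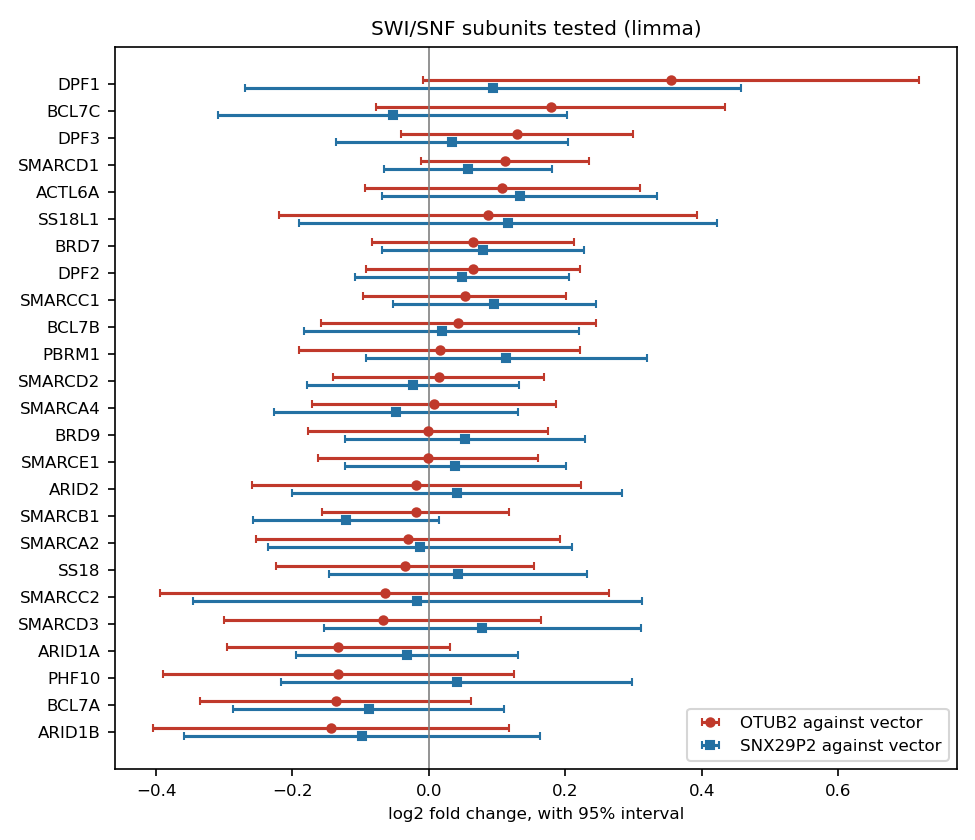
Log2 fold change with 95% interval (horizontal axis) of the 25 SWI/SNF subunits tested, for OTUB2 against vector (circles) and SNX29P2 against vector (squares), ordered by the OTUB2 value. Each of the 50 intervals includes 0, and ARID1A and ARID1B are among the 4 lowest with OTUB2.

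WT1 was low and variable between libraries of the same group. It lies on chromosome 11 at 32387775 to 32435630 (minus strand). WT1 was at 0.751, 1.03 and 0.767 RPKM with OTUB2. It was at 0.583, 0.998 and 0.933 RPKM with SNX29P2, and at 0.524, 1.37 and 0.906 RPKM with the vector. All groups overlapped, and the vector group held both the lowest and the highest library, with 92 and 217 reads. Means were 0.850 ± 0.158 RPKM with OTUB2, 0.838 ± 0.223 RPKM with SNX29P2 and 0.933 ± 0.424 RPKM with the vector (SD, n = 3 each).

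Log2 fold changes of WT1 were -0.05 with OTUB2 against the vector (SE 0.321, 95% interval of the factor 0.587 to 1.59; limma, adjusted p = 0.991) and -0.08 with SNX29P2 against the vector (0.573 to 1.55; limma, adjusted p = 0.972). OTUB2 against SNX29P2 gave 0.04 (0.623 to 1.69; limma, adjusted p = 1.000). Their sign turned when single libraries were left out, to 0.25 with OTUB2 and 0.21 with SNX29P2 without vector replicate 2, and to 0.025 with OTUB2 without OTUB2 replicate 1. OTUB2 against SNX29P2 was 0.11 for WT1 without that library. The antisense RNA WT1-AS, whose first exon shares 113 bases with WT1, had 80 reads in all libraries, against 1381 for WT1.

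Of the genes listed beside WT1, EGR1, an immediate early factor that recognises a similar DNA site, was far more abundant and varied more. EGR1 averaged 15.7 RPKM with a range of 9.45 to 30.8 RPKM over the 9 libraries, and its log2 fold change was -0.83 with OTUB2 (limma, adjusted p = 0.691) and -0.79 with SNX29P2 (limma, adjusted p = 0.551). WTAP, a protein first found by its binding to WT1, was at 11.7 ± 0.829 RPKM, with log2 fold changes of 0.07 and 0.06.

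**Figure D4:**
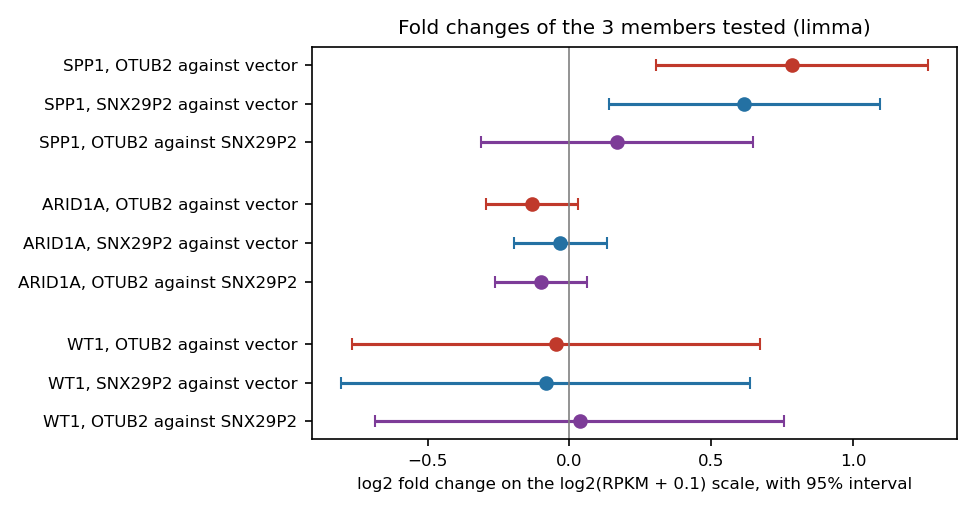
Log2 fold change with 95% interval (horizontal axis) of SPP1, ARID1A and WT1 in the 3 comparisons, from the fit over 16533 genes. The intervals of SPP1 against the vector lie above 0 before adjustment for the number of genes, those of ARID1A are narrow and include 0, and those of WT1 are the widest.

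PAX8 was detected at a trace level in all libraries and did not reach the level needed for the test. Its row spans 113215997 to 113278950 on chromosome 2 (minus strand). PAX8 was at 0.325, 0.298 and 0.149 RPKM with OTUB2. It was at 0.209, 0.359 and 0.183 RPKM with SNX29P2, and at 0.342, 0.421 and 0.268 RPKM with the vector. The groups overlapped, with the vector mean highest at 0.344 ± 0.0766 RPKM, beside 0.257 ± 0.0948 RPKM with OTUB2 and 0.250 ± 0.0946 RPKM with SNX29P2 (SD, n = 3 each). Pooled reads gave 0.261 RPKM with OTUB2 (253 reads, 95% exact Poisson interval 0.230 to 0.295) and 0.342 RPKM with the vector (310 reads, 0.305 to 0.382). Such intervals hold counting error alone and assume independent reads, and the spread between libraries was wider. In a fit without the filter, over 32997 genes, PAX8 had a log2 fold change of -0.34 with OTUB2 (SE 0.313; limma, adjusted p = 0.874) and -0.36 with SNX29P2 (SE 0.313; limma, adjusted p = 0.865). Without OTUB2 replicate 1 the OTUB2 value was -0.48 (limma, adjusted p = 0.964).

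PAX8-AS1, on the opposite strand, shares 685 exon bases with PAX8 and had 589 reads in all libraries against 804 for PAX8, so reads on the shared bases cannot be told apart without strand. Other family members were more abundant. PAX3, a factor of the neural crest and muscle precursors, averaged 3.78 ± 0.229 RPKM and PAX9 1.16 ± 0.222 RPKM (SD over 9 libraries), whereas PAX2, a close relative of PAX8, had 2 reads. PAX3 and PAX9 were not called, with log2 fold changes of -0.12 and -0.33 with OTUB2 and -0.13 and -0.28 with SNX29P2.

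Of the surface antigens among the members, MSLN gave next to no signal, and MUC16 and FOLR1 had no row to measure. MSLN lies on chromosome 16 at 760762 to 768865 (plus strand). It had 2 reads in OTUB2 replicate 2 (0.0161 RPKM) and 0 reads in the other 8 libraries. A count of 0 allows up to 3 reads, which is 0.0248 to 0.0304 RPKM in a library. Pooled over a group, MSLN was at 0.00597 RPKM with OTUB2 (95% exact Poisson interval 0.000723 to 0.0216). With a count of 0, the upper end of the same interval was 0.0108 RPKM with SNX29P2 and 0.0118 RPKM with the vector. The limit at 3 reads, a different measure, was 0.00881 RPKM with SNX29P2 and 0.00956 RPKM with the vector. A difference between groups was not detectable at this depth.

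MUC16 and FOLR1 had no row in the table analysed here and count as not detected by the rule that defines the members. Each row of the table held at least 1 read in at least 1 library. No other row had an exon within the span that GENCODE 29 gives MUC16 (chromosome 19, 8848844 to 8981342) or FOLR1 (chromosome 11, 72189558 to 72196323). The RefSeq windows at MUC16 starts (9010360 to 9010659 and 9065702 to 9066001) lie outside the span of MUC16 and were not searched. Without a row no upper limit can be given for either gene.

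Relatives of these antigens were mostly low. Of 10 listed membrane mucins 6 had a row and none reached the test, and MUC1, a mucin of many epithelia, was the highest at 0.126 RPKM. Of the folate genes, the carriers SLC19A1 and SLC46A1 were at 6.42 ± 0.472 and 3.59 ± 0.469 RPKM and the secreted receptor FOLR3 at 0.694 ± 0.190 RPKM (SD over 9 libraries). None of these 3 was called, with log2 fold changes of -0.02, -0.02 and -0.13 with OTUB2 and -0.08, -0.07 and 0.10 with SNX29P2.

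The wider marker lists gave a mixed picture of lineage. Of 12 clear cell markers 11 had a row and 5 averaged at least 1 RPKM. TFPI2, a protease inhibitor, was the highest at 59.1 ± 4.15 RPKM, before SPP1 and GLRX (glutaredoxin, 3.89 ± 0.532 RPKM). NAPSA, a marker used in the diagnosis of this type, had 9 reads in all 9 libraries together. Of 19 serous and Mullerian markers 12 had a row and 2 averaged at least 1 RPKM, namely LYPD1 (16.7 ± 1.38 RPKM) and MECOM (a transcription factor, 7.66 ± 0.444 RPKM; SD over 9 libraries). Of all rows, 56.1% averaged below the 0.874 RPKM of WT1 and 58.6% below the 1.16 RPKM of PAX9. The counts of markers above 1 RPKM were not tested against that background. EPCAM and CLDN3, surface proteins of epithelial cells, had 6 and 7 reads. WFDC2, SOX17, EMX2, KLK6 and KLK7 had no row, as had FXYD2 among the clear cell markers.

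**Figure D5:**
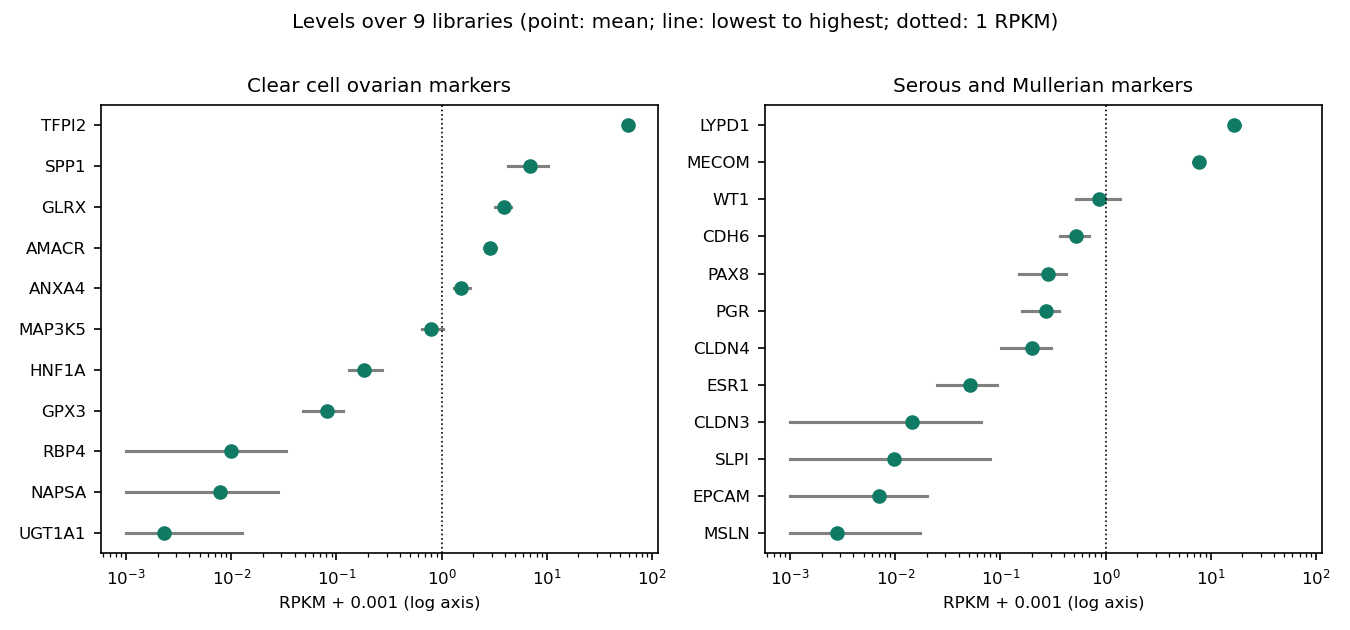
Mean level over the 9 libraries (points) and range (lines) of the clear cell markers (left) and the serous and Mullerian markers (right) that had a row, as RPKM + 0.001 on a log axis. Marked by the dotted line at 1 RPKM, 5 of 11 clear cell and 2 of 12 serous markers lie above it, while NAPSA and MSLN lie near 0. Of all rows, 58.6% averaged below 1.16 RPKM.

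No gene of either list was called. The 6 clear cell markers tested had a median log2 fold change of 0.06 with OTUB2 and 0.01 with SNX29P2, SPP1 being the highest in both, and TFPI2 was at 0.15 and 0.10. The 4 serous markers tested had medians of 0.03 and -0.06, with MECOM at 0.06 and 0.15 and LYPD1 at -0.0026 and -0.16. Without OTUB2 replicate 1 the OTUB2 medians were 0.03 for the clear cell markers and 0.08 for the serous markers, with LYPD1 at 0.09. Over all genes tested both medians were 0.01.

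In counts, 0 of the 3 tested members were called by limma in any comparison at an adjusted p under 0.05, and 0 by limma voom on recovered reads. The background was 0.0181% of 16533 genes with OTUB2 against the vector, 0.0363% with SNX29P2 against the vector and 0.0242% with OTUB2 against SNX29P2. At an unadjusted p under 0.05, 1 of 3 members (SPP1) passed with OTUB2 and 1 of 3 (SPP1) with SNX29P2 against the vector, where 6.73% and 8.21% of all genes did, and 0 of 3 passed with OTUB2 against SNX29P2, where 2.43% did. Libraries did not overlap between OTUB2 and vector for SPP1 and ARID1A, as for 10.8% of all genes, and between SNX29P2 and vector for SPP1, as for 11.7% (5.53% lower and the rest higher). Between OTUB2 and SNX29P2 they did not overlap for ARID1A, as for 8.35%.

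Genes whose level followed a member most closely were sought over the 9 libraries, as a description in which all points share library and depth. SPP1 was followed by UVRAG (Pearson r = 0.983), LACTB2-AS1 (0.979) and CGB8 (0.975). ARID1A was followed by PRTG (0.956), RP11-815I9.5 (0.938) and SPX (0.938), and WT1 by RP1-286D6.5 (0.986), NFATC3 (0.957) and DUSP7 (0.954). With the group means subtracted, the closest gene was HSPB1 for SPP1 (0.993), ICAM1 for ARID1A (0.983) and again RP1-286D6.5 for WT1 (0.988). Picked as the highest among all other tested genes over 9 points, these values are high by selection.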

How the data were processed

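RNA of ES-2 cells was sequenced in 9 libraries, grouped by the genotype in the labels. The authors deposited 1 table of RPKM values that also gives the exons and the length of each gene, per the file headers. The build is GRCh38, per the submitters' processing notes. No source used here names the aligner, the counter, the strand setting or the annotation release. RPKM multiplied by length gave whole multiples of 1 read for 100% of values below 1000 reads (tolerance 0.05 reads), so reads were recovered. Of these values 58.1 to 60.4% were even, so reads need not be independent molecules, and intervals and floors cover counting error only. Libraries of a group differed by more than counting noise (chi-square 11.0 to 35.9 per gene).

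The 16533 genes that reached 0.5 RPKM in 3 or more libraries were tested as log2(RPKM + 0.1) with limma 3.58.1 (R 4.3.3, trended variance), 1 model with group as the only term and Benjamini-Hochberg adjustment over all genes tested. The script was tested on simulated data. Annotation came from GENCODE 29 and RefSeq. Python 3.11.15, pandas 2.3.3, numpy 2.4.6, scipy 1.17.1 and matplotlib 3.10.9 were used.

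The members, gene lists and tests were chosen with earlier results of these data known. Named were all members, from each list up to 3 genes by level and up to 3 by smallest p, called genes, the transgenes, rows overlapping a member, and the 3 genes most correlated with each tested member; SMARCA4, ARID1B, NAPSA, EPCAM, CLDN3, IBSP, PAX2, ACTL6B, VWF, CALB2, LRRN4, KRT5 and further leukocyte genes were added after their values were seen. Same-numbered OTUB2 and SNX29P2 libraries deviated together (correlations of 0.15 to 0.27), and by these correlations alone, not by the labels, the numbers pair those groups. The main fit still took all libraries as unpaired, also for OTUB2 against SNX29P2, and its intervals and p-values leave such pairing out. Alternatives were other pseudocounts, filters and scalings, only the compared groups, a replicate block and each library left out. limma voom on recovered reads and fits without the 3 libraries numbered 2, and of the lists and PAX8 without OTUB2 replicate 1, were added after seeing the data. 1 further clear cell marker is not reported here.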

Additional observations from a re-analysis of the deposited data

How the results depend on the processing

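No member was called under any alternative run. SPP1 kept its direction in all 19 alternatives of each comparison, at log2 fold changes of 0.62 to 0.89 with OTUB2 and 0.38 to 0.76 with SNX29P2 against the vector, and so did ARID1A, at -0.17 to -0.09 and -0.07 to -0.01. WT1 changed sign when single libraries were left out, at -0.37 to 0.25 with OTUB2 and -0.40 to 0.21 with SNX29P2 against the vector and -0.18 to 0.16 between OTUB2 and SNX29P2. Without the 3 libraries numbered 2 it was 0.12 with OTUB2 and 0.084 with SNX29P2 against the vector. The cause was not tested. Over all genes, 3, 6 and 4 were called (OTUB2 against vector, SNX29P2 against vector, OTUB2 against SNX29P2), and 1 to 7, 1 to 7 and 1 to 5 with 1 library left out. The count of 1 came without vector replicate 1 or any OTUB2 library in the first comparison, and without any SNX29P2 library in the other 2. The count of 7 came without vector replicate 3 in both comparisons with the vector. Without the libraries numbered 2 the counts were 1, 0 and 1 (limma; 738, 684 and 319 at an unadjusted p under 0.05), with fewer samples. With OTUB2 against the vector 7 were called with no filter and 1 with only the 2 compared groups. With SNX29P2 against the vector 10 were called by limma voom and 1 under a filter of 1 RPKM in 6 libraries, which also gave 1 with OTUB2 against SNX29P2. With a replicate block the counts were 4, 9 and 4, and the SE of SPP1 was 0.0925 in place of 0.213, with an adjusted p of 0.0849 with OTUB2 and 0.147 with SNX29P2 against the vector and 0.919 between OTUB2 and SNX29P2 (limma). Deviations of same-numbered libraries correlated at 0.05 to 0.19 between OTUB2 and vector and -0.02 to 0.15 between SNX29P2 and vector, against -0.23 to 0.05 for other numbers in all 3 comparisons. Not every such pair was over 0.1, so the numbers were not taken as pairs against the vector. Each of 9 libraries did correlate best with 1 of its own number, a hint from the data and not from the design. For vector replicate 1 the margin was narrow, at 0.0506 with OTUB2 replicate 1 and 0.0502 with SNX29P2 replicate 3. With SNX29P2 replicate 1 its correlation was -0.0178. Between OTUB2 and SNX29P2 every pair was over 0.1, and the block changed no call of a member. The planned count models were not run, and limma voom was used on the recovered reads. Depth limits MSLN, with 2 reads in all.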

Other observations

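Some single markers of other cell types were high in ES-2 cells while others of their lists were low. BNC1, a transcription factor of mesothelial and basal epithelial cells, was at 32.2 ± 1.77 RPKM, followed on the mesothelial list by WT1 at 0.874 RPKM, while CALB2, UPK3B, LRRN4, KRT5 and MSLN each averaged at most 0.0910 RPKM. CDH5, the cadherin of endothelial junctions, was at 21.3 ± 1.95 RPKM, with KDR at 0.243 RPKM and PECAM1 and VWF with 70 and 2 reads in all libraries. Of the PECAM1 reads, 54 were in the OTUB2 group and 8 in each of the other groups. The OTUB2 group holds the library with leukocyte transcripts. COL1A1, a collagen chain of fibroblasts and other mesenchymal cells, was at 62.3 ± 11.9 RPKM, with 2 reads of COL3A1 and 54 of PDGFRB (SD over 9 libraries). None of BNC1, CDH5 and COL1A1 was called by limma in any of the 3 comparisons.

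The order of libraries within a group was shared between groups for some members. The library numbered 1 was the highest of its group for SPP1 in all 3 groups, and the library numbered 2 was the highest and number 1 the lowest for WT1 in all 3. For PAX8 the library numbered 3 was the lowest in all 3 groups, as it was for ARID1A. The labels do not say whether a number marks a shared culture, day or run.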
